A study of Mus musculus with 8 samples.

Results

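Genes of the lens fiber cell, 6 in number, were followed across the array data: Bfsp1, Mip, Fabp5, Caprin2, Nrcam and Cd24a. They were chosen by name, as genes for structural, membrane and associated proteins of fiber cells, and every probe set annotated to one of them was taken. Each gene had 1 probe set, so 6 of the 12488 probe sets on the MG-U74Av2 chip, for 6 of the 8251 genes named on it, were used, and all 6 were above background and entered the test. They were 100390_s_at (Bfsp1), 98796_at (Mip), 160544_at (Fabp5), 92208_at (Caprin2), 92293_at (Nrcam) and 100600_at (Cd24a).

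The study compared lenses of 2 mouse strains with and without the gap junction subunit α3Cx46, encoded by Gja3, to look for transcripts that differ with the strain or with the loss of this subunit. There were 4 groups of 2 arrays each: α3Cx46 knockout (KO) lenses on the C57BL/6J background, wild-type (WT) C57BL/6J lenses, KO lenses on the 129SvJae background and WT 129SvJae lenses. All mice were 10 days old, both sexes were used, and each RNA sample was a pool of lenses. The labels do not say whether the 2 pools of a group came from separate litters or days, so the p-values speak only for the scatter among these arrays, which may be technical. In pooled whole lenses, fewer cells of a type and less RNA per cell cannot be told apart.

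The lens grows by adding fiber cells, which elongate, lose their nuclei and organelles and fill with crystallins. Filensin, the product of Bfsp1, builds the beaded filaments of the fiber cytoskeleton, and aquaporin 0, the product of Mip, is a water channel and the main intrinsic protein of the fiber membrane. Fabp5 encodes a cytosolic carrier of fatty acids, Caprin2 an RNA-binding protein of RNA granules, Nrcam a cell adhesion molecule of the L1 family that binds ankyrin, and Cd24a a small, heavily glycosylated protein anchored in the membrane by a lipid.

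Promoter windows of 300 bases, with 250 bases before and the rest after the annotated start, were read from RefSeq (GRCm38.p6) for 4 of the 6 genes, while Fabp5 and Cd24a are named only. The windows of Caprin2 and Nrcam are shown because the arrays of Caprin2 separated by strain and those of Nrcam by genotype, and that of Mip because its base composition was unlike theirs. Capitals mark every match, on either strand, to 1 of 3 motifs: TATAAA, which the TATA-binding protein reads, TGCTGA, which is the core of a Maf site, and GGGCGG, known as the GC box.
Caprin2, chr6:148896188-148896487, minus strand: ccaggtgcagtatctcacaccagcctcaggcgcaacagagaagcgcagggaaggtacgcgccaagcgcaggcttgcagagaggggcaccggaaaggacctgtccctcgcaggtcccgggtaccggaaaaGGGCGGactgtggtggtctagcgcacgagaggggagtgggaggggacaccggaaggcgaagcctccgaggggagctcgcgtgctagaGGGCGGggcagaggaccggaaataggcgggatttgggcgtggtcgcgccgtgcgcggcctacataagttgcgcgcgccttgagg
Nrcam, chr12:44328635-44328934, plus strand: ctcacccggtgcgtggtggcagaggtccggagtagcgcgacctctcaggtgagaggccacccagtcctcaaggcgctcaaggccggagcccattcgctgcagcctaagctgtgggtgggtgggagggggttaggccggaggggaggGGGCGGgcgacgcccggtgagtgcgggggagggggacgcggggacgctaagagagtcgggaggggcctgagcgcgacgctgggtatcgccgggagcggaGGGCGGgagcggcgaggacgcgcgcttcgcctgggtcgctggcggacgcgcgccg
Mip, chr10:128225560-128225859, plus strand: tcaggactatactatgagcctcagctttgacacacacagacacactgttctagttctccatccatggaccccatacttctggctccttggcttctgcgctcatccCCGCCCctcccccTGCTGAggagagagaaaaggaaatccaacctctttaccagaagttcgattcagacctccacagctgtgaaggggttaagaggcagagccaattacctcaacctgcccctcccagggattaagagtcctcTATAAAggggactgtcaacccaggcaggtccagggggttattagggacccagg
The Caprin2 and Nrcam windows held 2 GC boxes each, no TATAAA and no TGCTGA, with 29 and 37 CpG dinucleotides. The Mip window held 1 match to each of the 3 motifs and 3 CpG dinucleotides. Its TATAAA began at position -3 from the annotated start. The Bfsp1 window (chr2:143863124-143863423, minus strand) held 1 TGCTGA, no match to the others and 4 CpG dinucleotides. The median number of CpG dinucleotides was 7 over all 32851 promoter windows of the same length. Among these windows, 13.6% held TATAAA, 19.5% held TGCTGA and 35.7% held GGGCGG. These matches describe the letters of the windows and were not tested for binding.

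The values are MAS5 signals on a linear scale, in which a signal of 50 is close to background. The mean of an array, with 2% trimmed off each end, is about 250. The arrays had median signals of 85.1 to 114.5, and 7637 to 8602 probe sets per array lay above 50. The Gja3 probe set had signals of 448 and 519 in C57BL/6J KO lenses, against 1968 and 3274 in C57BL/6J WT lenses, and of 472 and 445 in 129SvJae KO lenses, against 1100.3 and 3381 in 129SvJae WT lenses, which fits the labels; where it lies in the disrupted gene was not given. All 5 crystallin genes among the fiber markers were above 50 on all arrays, with signals of 8822 to 79380. Markers of other cell types were detected in part. Those above 50 on all arrays were Crx of photoreceptors, Pmel of pigment cells, Kdr and Eng of vessels, Hba-a1 and Slc4a1 of red blood cells, Tubb3 and Stmn2 of neurons, Csf1r, Cd14 and C1qb of macrophages, and Krt12 and Krt10 of cornea and skin. Those at or under 50 on all arrays were Rcvrn of photoreceptors, Alas2 of red blood cells, Nefm of neurons and Aif1, Lyz2 and C1qa of macrophages. Scan session 1 held replicate 1 of all 4 groups, session 2 held replicate 2 of 3 groups, and replicate 2 of 129SvJae WT lenses was scanned alone in session 3. The run record for replicate 1 of C57BL/6J WT lenses has a note of a communication error of the fluidics station.

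Strain and genotype comparisons were fitted for all 10078 tested probe sets at once with limma, and a probe set was called at an adjusted p under 0.05. None of the 6 genes was called in the strain difference averaged over genotypes, where 0.367% of all tested probe sets were, or in the KO effect averaged over strains, where 0.0198% were. None was called in the strain difference within KO lenses (0.0893% of all) or within WT lenses (0.0695% of all), in the KO effect within C57BL/6J lenses (0.00992% of all) or within 129SvJae lenses (0% of all), or in the interaction of strain and genotype (0% of all). At an unadjusted p under 0.05 in limma, 2 of the 6 genes passed in the averaged strain difference, against 6.97% of all probe sets, and 1 of the 6 in the averaged KO effect, against 3.05%. In limma this unadjusted level was also passed by 2 of the 6 in the strain difference within WT lenses (6.47% of all). Within KO lenses 0 of the 6 passed it (3.73% of all). The same held for the KO effect in C57BL/6J lenses (2.31% of all) and in 129SvJae lenses (3.12%), and for the interaction (2.11%). The median log2 ratio of the 6 genes was 0.14 for C57BL/6J over 129SvJae, against 0.01 over all probe sets, and -0.12 for KO over WT, against -0.02 over all probe sets. Their standard errors in the averaged comparisons lay between 0.14 and 0.16 on the log2 scale, against a median of 0.42 over all tested probe sets. No gene reached a fold of 1.8 with p at most 0.01, the criteria of the study's methods, in any comparison, with limma's p or with that of the methods' own test, and 0.258% to 1.46% of all tested probe sets did, depending on the comparison. Exact two-sided permutation tests were run for the 12 averaged ratios. A complete separation of 4 arrays from 4 fixes p at 0.0286, the smallest possible, and this was the value for the strain ratio of Caprin2 and the KO ratio of Nrcam, while the other 10 of the 12 gave p between 0.114 and 0.686.

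**Figure D1:**
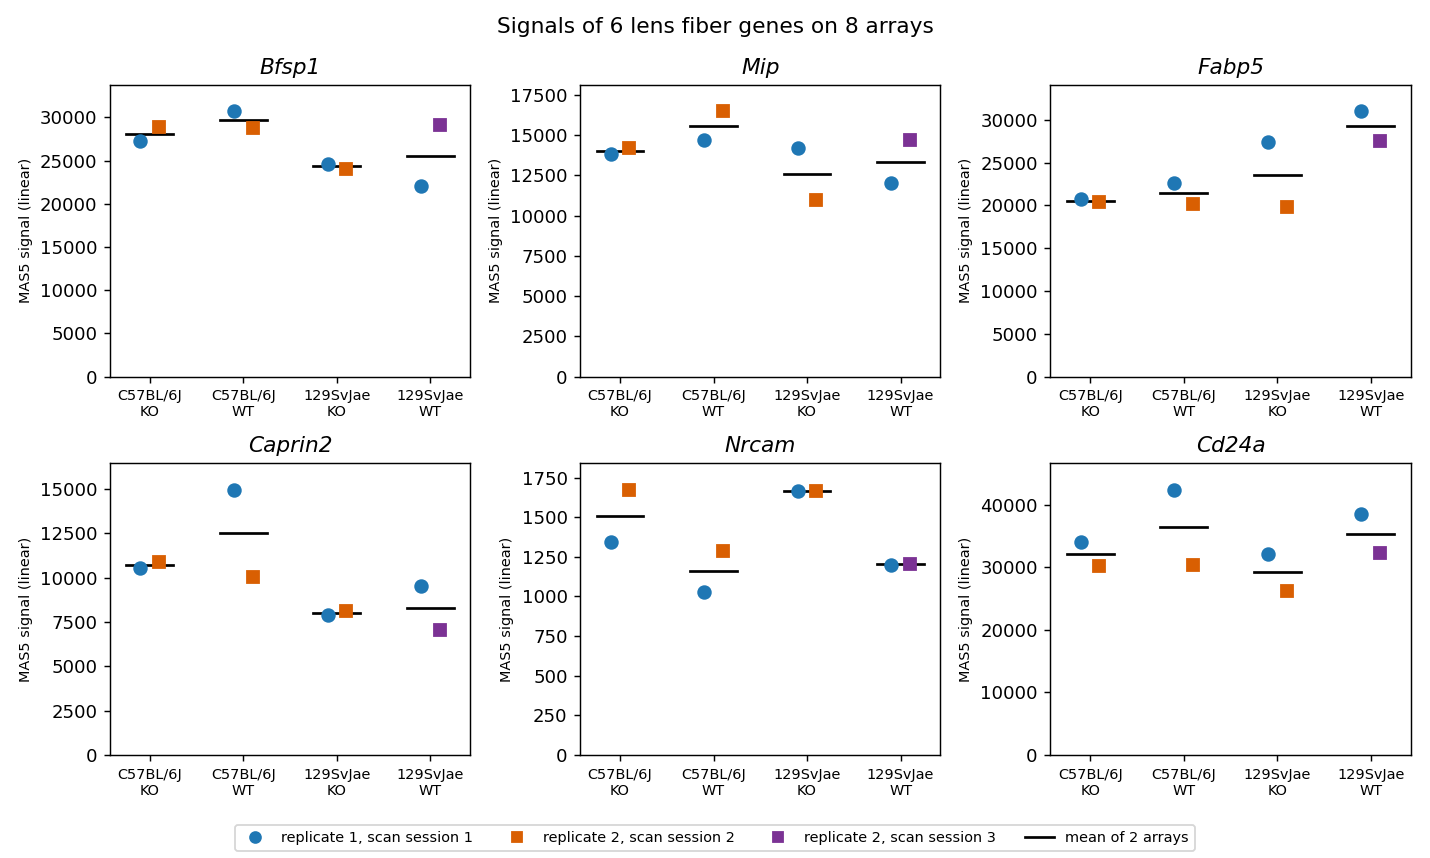
MAS5 signals (linear scale, from 0) of the 6 genes on 8 arrays, by strain and genotype. Points are single arrays colored by scan session and bars are means of 2 arrays; the 4 C57BL/6J arrays of Caprin2 (10027 to 14964) lay above its 4 129SvJae arrays (7050.1 to 9558), and the 4 KO arrays of Nrcam (1347 to 1674) above its 4 WT arrays (1029 to 1287).

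Bfsp1 and Mip are the 2 genes whose products are found almost solely in lens fibers. Bfsp1 had signals of 27247 and 28880.0 in C57BL/6J KO lenses and of 30679 and 28747 in C57BL/6J WT lenses, against 24643 and 23989.8 in 129SvJae KO lenses and 22015 and 29121 in 129SvJae WT lenses. The arrays thus fell in order of strain, except replicate 2 of the 129SvJae WT group, the array scanned alone. The averaged strain log2 ratio of Bfsp1 was 0.22 ± 0.14 (SE, 4 arrays against 4; limma, adjusted p = 0.856), with a 95% interval from -0.08 to 0.52. Between KO lenses of the 2 strains the Bfsp1 arrays did not overlap, as was the case for 31.9% of all probe sets with 2 arrays against 2.

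Mip had signals of 13864.5 and 14201.5 in C57BL/6J KO lenses, against 14690.5 and 16481 in C57BL/6J WT lenses. In 129SvJae KO lenses the Mip signals were 14239 and 10994, against 12011 and 14692 in 129SvJae WT lenses. The strains overlapped, and the 2 replicates of 129SvJae KO lenses lay farther apart (1.30-fold) than the highest and lowest group means (1.24-fold). KO and WT arrays did not overlap in C57BL/6J lenses, as for 27.7% of all probe sets, but did in 129SvJae lenses. The averaged KO log2 ratio of Mip was -0.12 ± 0.14 (SE; limma, adjusted p = 0.998; 95% interval -0.42 to 0.19), and its averaged strain log2 ratio was 0.20 ± 0.14 (adjusted p = 0.886; 95% interval -0.11 to 0.50).

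Fabp5 was the 1 gene of the 6 with a larger signal in 129SvJae lenses at an unadjusted p under 0.05. Signals of 20759 and 20354 were measured in C57BL/6J KO lenses, against 27463 and 19766 in 129SvJae KO lenses. In C57BL/6J WT lenses they were 22625 and 20219, against 30994 and 27540.3 in 129SvJae WT lenses. The WT strains did not overlap, as for 32.3% of all probe sets, while replicate 2 of the 129SvJae KO group was the lowest of all 8 arrays. The averaged strain log2 ratio of Fabp5 was -0.32 ± 0.14 (SE, 4 arrays against 4; limma, unadjusted p = 0.0470, adjusted p = 0.703), a ratio of 0.804 with a 95% interval from 0.648 to 0.997. Without replicate 1 of 129SvJae KO lenses it was -0.20 on the log2 scale, and the exact two-sided permutation p over the 8 arrays was 0.143. Within KO lenses it was -0.18 ± 0.20 (limma, adjusted p = 0.9997) and within WT lenses -0.45 ± 0.20 (limma, adjusted p = 0.765), and the difference between the 2 strain ratios, KO minus WT, did not pass the test (log2 0.27 ± 0.29; limma, adjusted p = 0.9998). KO and WT arrays of Fabp5 did not overlap in 129SvJae lenses, as for 29.8% of all probe sets, where the KO log2 ratio was -0.33 ± 0.20 (limma, adjusted p = 0.9998). That ratio was -0.07 after quantile normalization, -0.18 with centred arrays, -0.56 without replicate 1 and -0.09 without replicate 2 of 129SvJae KO lenses.

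Caprin2 had the largest strain ratio of the 6 genes. Its signals were 10526 and 10891 in C57BL/6J KO lenses and 14964 and 10027 in C57BL/6J WT lenses, against 7894 and 8110.4 in 129SvJae KO lenses and 9558 and 7050.1 in 129SvJae WT lenses. All 4 C57BL/6J arrays lay above all 4 129SvJae arrays, a separation that 5.57% of all tested probe sets showed in either direction. The averaged strain log2 ratio was 0.50 ± 0.16 (SE, 4 arrays against 4; limma, unadjusted p = 0.00747, adjusted p = 0.373), a 1.41-fold higher signal in C57BL/6J lenses with a 95% interval from 1.12 to 1.79. The ratio was 0.42 ± 0.22 in KO lenses and 0.58 ± 0.22 in WT lenses, and their difference was -0.16 ± 0.32 (limma, adjusted p = 0.9998). The 4 pairs of same-numbered arrays, 3 of which shared a scan session, gave strain log2 ratios of 0.42 to 0.65. Their direction was fixed by the separation of the 4 arrays from 4. Replicate 1 of the C57BL/6J WT group had the highest Caprin2 signal of the 8 arrays. Without this array the averaged strain log2 ratio was 0.35 (limma, adjusted p = 0.826) and that within WT lenses 0.29. The fiber markers, all 5 of 5 measured on every array, had a median strain log2 ratio of 0.02, and their summed signals were 154353 to 203652 in C57BL/6J KO and 165186 to 276916 in C57BL/6J WT lenses, against 135030.0 to 190025 in 129SvJae KO and 195545 to 264392 in 129SvJae WT lenses. KO and WT signals of Caprin2 overlapped in both strains, with an averaged KO log2 ratio of -0.12 ± 0.16 (limma, adjusted p = 0.998).

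**Figure D2:**
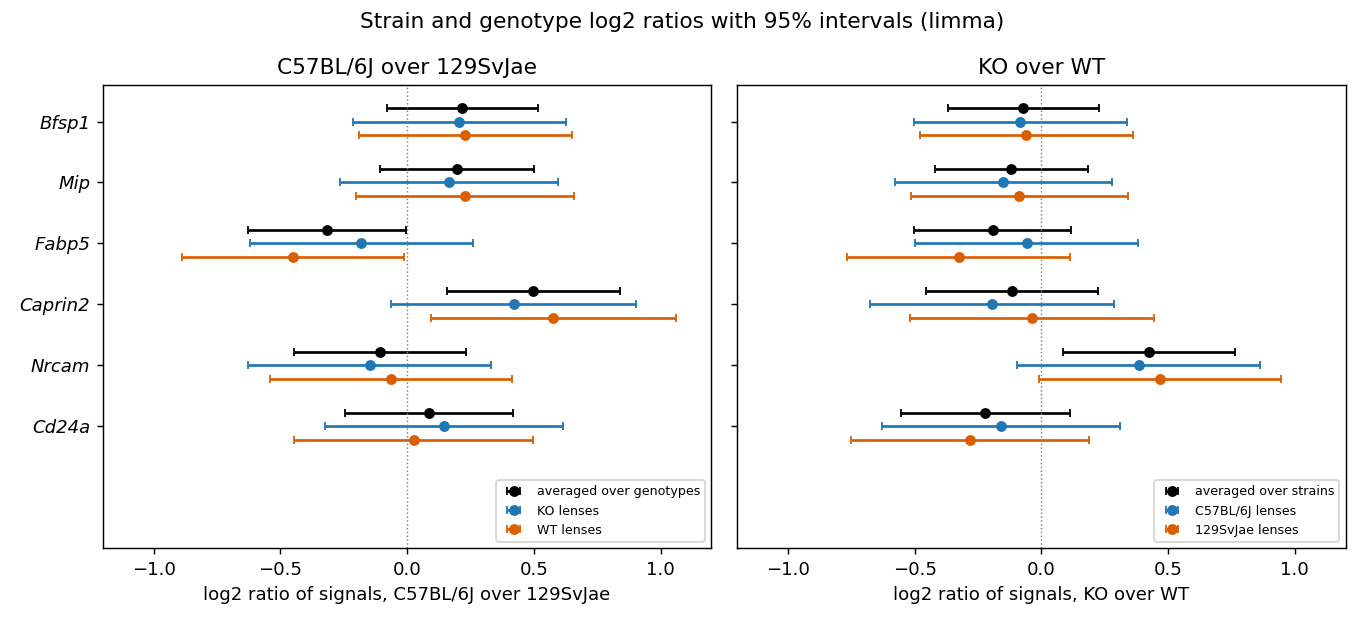
Log2 ratios of the 6 genes for C57BL/6J over 129SvJae (left) and KO over WT (right). Points are limma estimates and bars their 95% intervals, averaged or within 1 genotype or strain; the averaged intervals of Caprin2 (0.16 to 0.84) and Fabp5 (-0.63 to -0.005) for strain and of Nrcam (0.09 to 0.76) for KO lay off 0, and no ratio passed after adjustment over 10078 probe sets.

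Nrcam was the 1 gene of the 6 with an averaged KO log2 ratio above 0, although that of Bfsp1 (-0.07 ± 0.14) also came to lie above 0 after quantile normalization or centring of the arrays. The Nrcam signals were 1347 and 1674 in C57BL/6J KO lenses, against 1029 and 1287 in C57BL/6J WT lenses. Those in 129SvJae KO lenses were 1663 and 1664, against 1199 and 1207 in 129SvJae WT lenses. All 4 KO arrays lay above all 4 WT arrays, a separation that 2.19% of all tested probe sets showed in either direction. The averaged KO log2 ratio of Nrcam was 0.43 ± 0.16 (SE, 4 arrays against 4; limma, unadjusted p = 0.0176, adjusted p = 0.998), a 1.34-fold higher signal with a 95% interval from 1.06 to 1.70. The KO log2 ratio was 0.38 ± 0.22 in C57BL/6J lenses and 0.47 ± 0.22 in 129SvJae lenses, and their difference was -0.08 ± 0.31 (limma, adjusted p = 0.9998). Same-number pairs, 3 of the 4 within 1 scan session, gave KO log2 ratios of 0.38 to 0.47. Their direction was fixed by the separation of the 4 arrays from 4.

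The lowest Nrcam signal was that of C57BL/6J WT replicate 1. Without this array the averaged KO log2 ratio was 0.34 (limma, adjusted p = 0.9998) and that within C57BL/6J lenses 0.22. Nrcam is also expressed by neurons. The summed signals of 7 neuronal markers were 2663 to 3530.2 in C57BL/6J KO lenses, against 2531 to 3684 in C57BL/6J WT lenses. They were 2367 to 2451 in 129SvJae KO lenses, against 1994 to 3288 in 129SvJae WT lenses, so the sums overlapped in both strains. The sums were mostly Tubb3, with mean signals of 2086 to 2624, so they say little of the other markers. Stmn2 had mean signals of 290 in C57BL/6J KO lenses, against 311 in C57BL/6J WT lenses. In 129SvJae KO lenses its mean was 179, against 294 in 129SvJae WT lenses. Snap25, Syt1, Nefl, Nefm and Gap43 had mean signals of 8.89 to 86.3, near background. Of 6 tested neuronal markers, 4 had an averaged KO log2 ratio below 0 and 2 above 0, and none was called. The 5 fiber markers had KO log2 ratios below 0 in 5 of 5 cases, with a median of -0.39, and none was called. With arrays centred on the median 5 of 5 lay below 0, with a median of -0.29. After quantile normalization 4 of 5 lay below 0, with a median of -0.07. In 129SvJae lenses the summed fiber markers of KO and WT arrays did not overlap, as was the case for 29.8% of all single probe sets. Neither did the sums of 5 markers of pigment epithelium, iris and ciliary body, at 306 to 319 in KO lenses against 336 to 463 in WT lenses. The sums of 8 macrophage and leukocyte markers did not overlap either, at 4632 to 4804 in KO lenses against 2697 to 3357 in WT lenses. In C57BL/6J lenses the KO and WT sums of each of these lists overlapped. The macrophage sums were mostly C1qb, with mean signals of 4034 in 129SvJae KO and 2327 in 129SvJae WT lenses. Of the others, Csf1r (284 against 303) and Cd14 (258 against 287) were lower in 129SvJae KO lenses and Cd68 (66.2 against 36.1) was higher. The remaining markers of the macrophage list had mean signals under 50. The part of neuronal, fiber, pigment or macrophage cells in the Nrcam values was not tested. Between strains the Nrcam arrays overlapped, with an averaged log2 ratio of -0.11 ± 0.16 (limma, adjusted p = 0.954).

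Cd24a had signals of 34040.5 and 30277 in C57BL/6J KO lenses, against 42401 and 30366 in C57BL/6J WT lenses. Those in 129SvJae KO lenses were 32162 and 26182, against 38567 and 32217 in 129SvJae WT lenses. Replicate 1 was the higher array in 4 of 4 groups, by 0.17 to 0.48 on the log2 scale, as it was for the summed fiber markers in 4 of 4 groups. The KO array was lower than its WT partner in 4 of 4 same-number pairs, with log2 ratios of -0.32 to -0.004, and KO and WT arrays did not overlap in 129SvJae lenses (32162 against 32217 at the nearest), as for 29.8% of all probe sets. The averaged KO log2 ratio of Cd24a was -0.22 ± 0.15 (SE; limma, adjusted p = 0.998; 95% interval -0.55 to 0.11) and the averaged strain log2 ratio 0.09 ± 0.15 (limma, adjusted p = 0.958; 95% interval -0.25 to 0.42). The averaged KO ratio was -0.04 after quantile normalization, -0.12 with arrays centred on the median, and -0.10 without replicate 1 of C57BL/6J WT lenses, the array with the highest Cd24a signal.

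**Figure D3:**
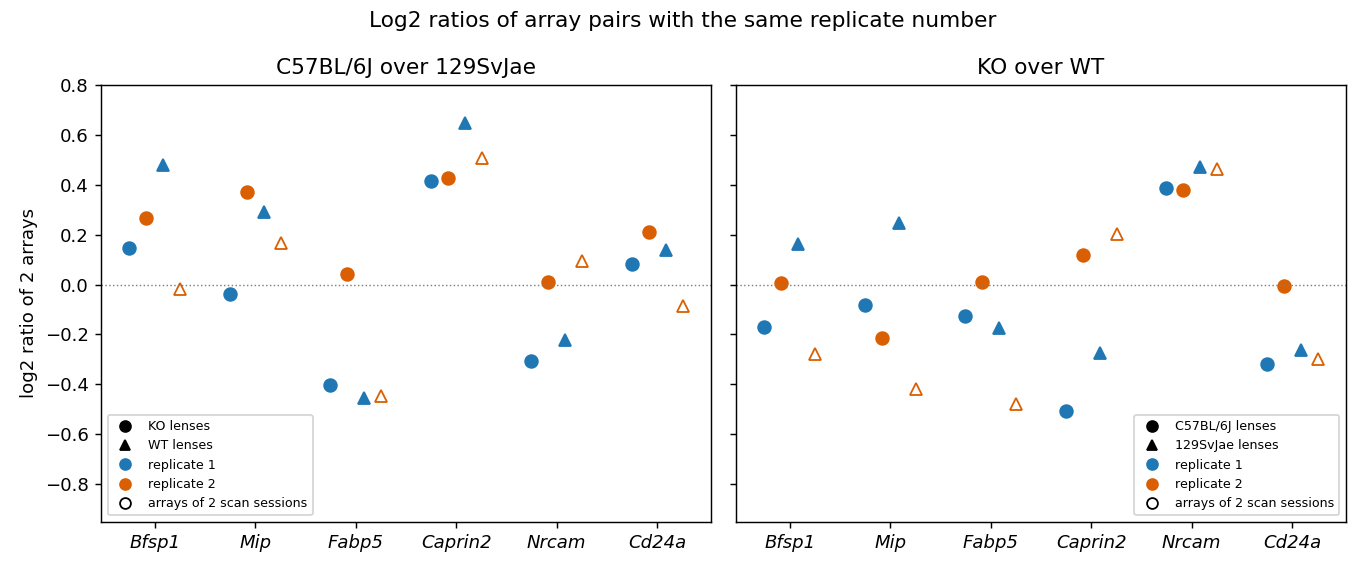
Log2 ratios of array pairs with the same replicate number, C57BL/6J over 129SvJae (left) and KO over WT (right), for the 6 genes. Filled symbols are pairs of 1 scan session and open symbols pairs across 2 sessions; all 4 strain pairs of Caprin2 lay between 0.42 and 0.65 and all 4 KO pairs of Nrcam between 0.38 and 0.47.

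The order of the 4 group means differed between genes. Bfsp1, Mip and Caprin2 shared one order, with C57BL/6J WT lenses at the top, then C57BL/6J KO, 129SvJae WT and 129SvJae KO lenses. Fabp5 ran from 129SvJae WT lenses down to 129SvJae KO, C57BL/6J WT and C57BL/6J KO lenses, the reverse by strain. Nrcam had both KO groups on top, with 129SvJae KO above C57BL/6J KO and then 129SvJae WT above C57BL/6J WT lenses, and Cd24a had both WT groups on top. No neighbors in these orders passed the test of their difference, and the step from the highest to the lowest group did not pass in any of the 6 genes either (limma, adjusted p from 0.870 to 0.963), where 0.119% of all probe sets were called for C57BL/6J WT over 129SvJae KO lenses and 0.0794% for C57BL/6J KO over 129SvJae WT lenses. Over the 8 arrays the highest signal of a gene was 1.39 (Bfsp1) to 2.12 (Caprin2) times its lowest.

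Correlations of log2 signals over the 8 arrays, given as a description because the arrays share groups and scan sessions, ran from -0.79 (Nrcam with Cd24a) to 0.76 (Bfsp1 with Mip) over the 15 pairs of the 6 genes, and 7 of the 15 were above 0. Among 8919 other probe sets, the profile of Mip was most like that of Cryab (r = 0.942), a small heat shock crystallin. Next came Bsg (r = 0.942), a membrane glycoprotein that escorts lactate transporters, and Kcnk1 (r = 0.938), a potassium channel. Cd24a was most like Nppb (r = 0.983), Tiam1 (r = 0.982) and Cryaa (r = 0.980), of which Nppb (49.4 to 142.5) and Tiam1 (27.7 to 149.5) had signals that ran below 50, and 86 probe sets had r above 0.9 with it, against 10 to 28 for the other 5 genes. Bfsp1 was most like Sugp2 (r = 0.961), Map7d1 (r = 0.947) and Cdca7 (r = 0.939). Caprin2 was most like Aldh1a7 (r = 0.983), an aldehyde dehydrogenase, Ech1 (r = 0.964), an enzyme of fatty acid oxidation, and Larp4b (r = 0.936), an RNA-binding protein. Fabp5 was most like Mapk8ip1 (r = 0.987), Pnrc1 (r = 0.968) and Nmbr (r = 0.947), of which Mapk8ip1 (28.4 to 163) and Nmbr (14.5 to 67.8) had signals that ran below 50. Nrcam was most like Akap1 (r = 0.965), Rtf2 (r = 0.956) and Xpo7 (r = 0.951), of which Xpo7, an exporter of proteins from the nucleus, had signals of 573 to 1064 and the other 2 had signals that ran below 50.

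Around the 6 genes, 8 lists of related genes held 107 genes, of which 75 were on the chip with a probe set of their own and 68 were tested. None of the 68 passed in limma in the averaged strain difference (0.367% of all probe sets), within KO lenses (0.0893%) or within WT lenses (0.0695%), and 1 passed in the averaged KO effect (0.0198%). This was Gja3 itself, a fiber membrane protein, with a log2 ratio of -2.23 ± 0.29 (limma, adjusted p = 0.0160), and it was 1 of 4 tested members of the list of fiber membrane proteins. Atp1b1, a subunit of the sodium pump, had the smallest p of that list between strains, with a log2 ratio of -0.54 ± 0.46 (limma, adjusted p = 0.915). Bfsp2, the filament partner of filensin, and Lim2 were not analysed here.

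Among genes for intermediate filaments and the nuclear lamina, 0 of 8 tested members passed, with a median strain log2 ratio of -0.22 and a median KO log2 ratio of -0.15. Lmnb2, which encodes a lamin, had a strain log2 ratio of -0.86 ± 0.54 (limma, adjusted p = 0.854) at mean signals of 48.1 to 163. Dsp, which encodes desmoplakin, had a KO log2 ratio of -0.63 ± 0.59 (limma, adjusted p = 0.998) at mean signals of 40.6 to 69.9, near background. For aquaporins and calmodulin, 0 of 6 passed. Aqp4, a water channel, had mean signals of 112.4 in C57BL/6J KO and 121.9 in C57BL/6J WT lenses, against 258 in 129SvJae KO and 189 in 129SvJae WT lenses, a strain log2 ratio of -1.04 ± 0.41 (limma, adjusted p = 0.576). Aqp1, the water channel of the lens epithelium, had a KO log2 ratio of 1.12 ± 0.62 (limma, adjusted p = 0.998). Its mean signals were 63.9 to 151.8, and it was not above 50 on all arrays. Of the membrane skeleton genes, which include the ankyrins that L1-family molecules bind, 0 of 9 passed. Ank3 had a strain log2 ratio of -0.44 (limma, adjusted p = 0.762) and Ank1 a KO log2 ratio of -0.28 (limma, adjusted p = 0.998), and the KO log2 ratios of the list lay between -0.28 and 0.17. For adhesion molecules 0 of 16 passed. Ctnnb1, which encodes β-catenin, had a strain log2 ratio of -0.25 ± 0.13 (limma, adjusted p = 0.792). Jam3, a junctional adhesion molecule, had mean signals of 658 in C57BL/6J KO lenses, against 495 in C57BL/6J WT lenses, and of 700.4 in 129SvJae KO lenses, against 568 in 129SvJae WT lenses, a KO log2 ratio of 0.35 ± 0.19 (limma, adjusted p = 0.998). The median KO log2 ratio of the adhesion list was 0.11.

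Of the intracellular lipid-binding proteins, 0 of 8 tested members passed. Dbi, the acyl-CoA-binding protein, had mean signals of 2997 in C57BL/6J KO and 3517 in C57BL/6J WT lenses, against 6590 in 129SvJae KO and 6783 in 129SvJae WT lenses. Its strain log2 ratio of -0.94 ± 0.26 had the smallest p of all 68 genes in this comparison (limma, unadjusted p = 0.00288, adjusted p = 0.226), and like that of Fabp5 it was below 0, whereas the median of the list was 0.06. Fabp4 had a KO log2 ratio of -2.18 ± 0.65 (limma, adjusted p = 0.998) at mean signals of 16.1 to 114.6, near background. For RNA granule proteins 0 of 12 passed, with a median strain log2 ratio of -0.04. Tial1, an RNA-binding protein of stress granules, had a strain log2 ratio of -0.63 ± 0.20 (limma, adjusted p = 0.385), opposite in sign to Caprin2, and Ybx1, which encodes a cold shock domain protein, a KO log2 ratio of -0.24 ± 0.13 (limma, adjusted p = 0.998). Of CD24 partners and Src-family kinases, 0 of 5 passed. Yes1 had a strain log2 ratio of -0.31 ± 0.31 (limma, adjusted p = 0.937), and Sele, which encodes E-selectin, a KO log2 ratio of 1.68 ± 0.77 (limma, adjusted p = 0.998) at mean signals of 7.39 to 58.7, near background.

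**Figure D4:**
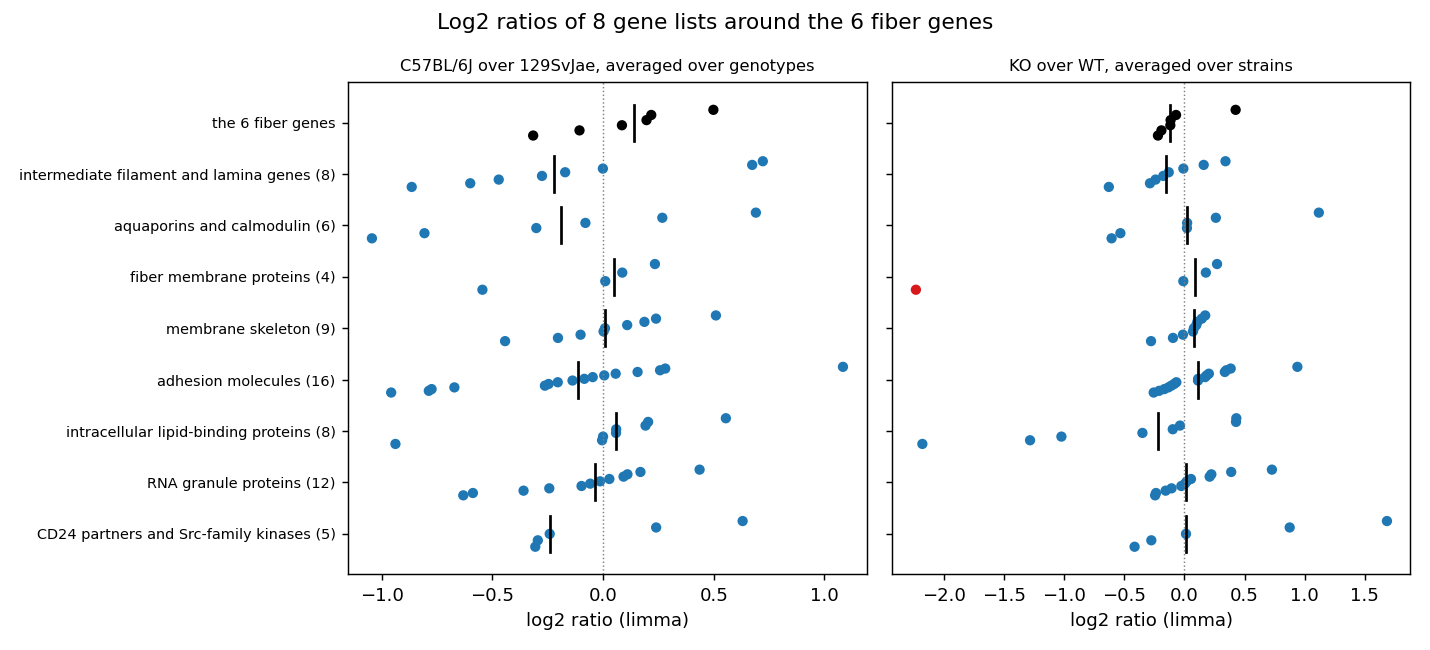
Limma log2 ratios of the 6 fiber genes (black) and of the 68 tested genes of 8 related lists (blue), averaged over genotypes (left) or strains (right), with the number of tested genes of each list in parentheses. Each point is 1 gene and each bar a median; the red point is Gja3 (-2.23), the only one of these genes called in either comparison.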

How the data were processed

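Lens RNA from 8 pooled samples, 2 for each of 4 groups given by the labels, was hybridized to MG-U74Av2 chips. The authors deposited a linear MAS5 intensity for every probe set, with arrays scaled to a mean of 250. Neither detection calls nor probe-level data were used here. The number of arrays limits the precision.

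In R 4.3.3, arrays were brought to a trimmed mean of 250 (2% off each end), 1 value not above 0 was replaced by 1, and log2 values were taken. With 66 control probe sets left out, the 10078 whose mean exceeded 50 in some group were fitted with limma 3.58.1 (4 group means, trend in the variance prior, 4 residual and 9.17 prior degrees of freedom, Benjamini-Hochberg adjustment). Genes were named from probe sets with 1 symbol (10833 of the 12422 that are not controls), brought up to date with RefSeq names (GRCm38.p6), and a gene with several is given by the brightest. No build is named for the chip. The limma tests reported above were not paired. Only for the pair ratios and the replicate block were the replicate numbers taken to pair the arrays. Same-numbered arrays deviated from their group means together (correlations of 0.129 to 0.206 in all 6 pairs of groups), and the numbers follow the scan session.

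The genes and lists were chosen with earlier results of these data known. Named from each list were called members and the member with the smallest p in each averaged comparison (the rule allowed up to 3), and for each of the 6 genes the 3 probe sets most correlated with it. Alternatives covered scaling, filters, floors, the variance prior, blocks, the methods' t-test and leaving out each array.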

Additional observations from a re-analysis of the deposited data

How the results depend on the processing

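No alternative brought any of the 6 genes past the threshold. All 136 counts of called genes, which include those of the reported fit, were 0. Of the 324 alternative ratios that differed from those reported, 296 kept their direction. The filters, the floor of 50 and the variance prior leave the ratios of these 6 genes as they are and bear only on p. With the replicate number as a block, which changed no call, limma gave an adjusted p of 0.139 for the strain difference of Caprin2, 0.286 for that of Fabp5 and 0.919 for the KO effect of Nrcam. Caprin2 (0.35 to 0.64) and Nrcam (0.34 to 0.52) kept these averaged directions throughout. Other averaged KO ratios kept their direction but shrank after quantile normalization, to -0.054 for Mip, -0.017 for Fabp5 and -0.0089 for Caprin2. The 28 reversals, in 15 ratios, were at most 0.22 in size on the log2 scale, and their cause was not tested. The averaged KO ratio of Bfsp1 was 0.043 after quantile normalization, 0.029 with arrays centred on the median and 0.035 with the scan session as a block. For the KO effect in 129SvJae lenses, these gave 0.087, 0.085 and 0.15 for Bfsp1; centring and the session block gave 0.057 and 0.088 for Mip; quantile normalization and centring gave 0.040 and 0.11 for Caprin2. In C57BL/6J lenses, quantile normalization gave a KO ratio of 0.041 for Fabp5. Centring shifted the median of all probe sets by 0.14 for the KO effect in 129SvJae lenses.

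Leaving out 1 array at a time, the ratios that crossed 0 were as follows. The averaged KO ratio lay between -0.17 and 0.031 for Bfsp1 and between -0.26 and 0.029 for Caprin2, and the averaged strain ratio of Cd24a between -0.035 and 0.21. In 129SvJae lenses the KO ratio lay between -0.26 and 0.14 for Bfsp1, -0.27 and 0.10 for Mip, and -0.26 and 0.18 for Caprin2. In C57BL/6J lenses it lay between -0.14 and 0.024 for Fabp5, -0.48 and 0.095 for Caprin2, and -0.40 and 0.080 for Cd24a. In KO lenses the strain ratio lay between -0.021 and 0.35 for Mip, -0.42 and 0.057 for Fabp5, -0.30 and 0.0089 for Nrcam, and -0.0026 and 0.29 for Cd24a. In WT lenses it lay between -0.23 and 0.10 for Nrcam and -0.22 and 0.27 for Cd24a.

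Over all probe sets, the alternatives gave 1 to 86 calls for the averaged strain difference (37 here), 0 to 15 in KO lenses (9), 0 to 38 in WT lenses (7), 0 to 3 for the averaged KO effect (2), 0 to 2 in C57BL/6J lenses (1), 0 to 3 in 129SvJae lenses (0) and 0 to 1 for the interaction (0). With 2 arrays per group, the 95% intervals of the averaged ratios reached 0.30 to 0.34 to either side on the log2 scale.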
